A study of Mus musculus with 6 samples.

Results

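Respiratory complex I was followed through the 45 genes of the deposited table, of 35976 in all, whose symbol starts with Nduf. No symbol of the table that starts so contains -ps, so none was left out for that. The symbol Ndufb1 is not among the 45. Of the 45 genes, 36 encode subunits of the enzyme, 7 are the assembly factors Ndufaf1 to Ndufaf7, and 2, Ndufa4 and Ndufa4l2, carry the name but are not counted here as subunits. The libraries came from hearts of wild-type mice. Edited hearts, 3 libraries, had been given an adeno-associated virus with the editor TadA8e-Sauri behind a MYL2 promoter, which is active in heart muscle, and a U6-driven guide, sgRNA7, against Camk2d. Control hearts, 3 libraries, had no treatment, so virus, editor and edit all differ between the groups and cannot be told apart. The tissue is labelled heart only, without saying which chambers. Nothing in the labels says whether the libraries of a group came from different mice, and the p-values then describe only how these libraries vary, which may be technical.

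Complex I takes electrons from NADH, passes them to ubiquinone and pumps protons across the inner mitochondrial membrane. It is L-shaped. Its matrix arm holds the N module, which oxidizes NADH, and the Q module, which reduces ubiquinone. Its membrane arm, which pumps the protons, has a proximal and a distal part. Most subunits are encoded in the nucleus and the ND subunits of the membrane arm in mitochondrial DNA. Assembly factors build the modules and join them but are absent from the finished enzyme. Heart muscle is packed with mitochondria and depends on this enzyme for most of its ATP.

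Total counts per library ran from 17062412 to 23097998, and each of the 45 genes had between 137 and 16432 reads in every library. Camk2d, the targeted gene, was at 226, 219.6 and 224 CPM in controls 1, 2 and 3 and 138, 129.8 and 164 CPM in edited 1, 2 and 3, where CPM are counts per 1000000 counts, scaled by TMM factors. Its log2 change was -0.63 (SE 0.075), edited over control (adjusted p 0.000476, edgeR), a call lost with controls 1 and 3 left out (0.0964). The libraries differed in atrial transcripts: the sum of 6 atrial markers was 61.9, 1992 and 43.8 CPM in controls 1, 2 and 3 and 1883, 1272 and 2824 CPM in the edited hearts, and 0 of the 5 tested were called. Controls 1 and 3 therefore stand apart, and results are given with and without them.

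Complex I transcripts were lower in edited hearts, by a small amount. The 36 subunits summed to 9453, 8581 and 9284 CPM in controls 1, 2 and 3 and to 7937, 8149 and 7921 CPM in edited 1, 2 and 3. The groups did not overlap, and the edited mean was 87.9% of the control mean (control 9106 ± 463 CPM, edited 8002 ± 128 CPM, SD, n = 3). As a share of all counts, with no scaling, the subunits took 0.926%, 0.835% and 0.901% in controls and 0.806%, 0.831% and 0.822% in edited hearts. Without scaling the groups are closer, and control 2 lies just above edited 2.

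Of the 36 subunits, 13 fell and 0 rose at an adjusted p under 0.05 (edgeR's quasi-likelihood test, Benjamini-Hochberg over 14879 tested genes). Of all tested genes, 4.74% were lower and 4.93% higher by the same test. All 36 estimates were below 0, from -0.29 to -0.072 on the log2 scale, edited over control. Their median was -0.18, and that of all tested genes 0.0013. The tenth of tested genes with the highest mean CPM had a median of -0.060. Short genes were also lower as a whole. The median of all tested genes was -0.091 up to 500 bases, which holds 5 subunits. From there up to 1000 bases, which holds 16 subunits, it was -0.060. At an unadjusted p under 0.05 edgeR had 29 subunits lower and 0 higher, and DESeq2 and limma voom also called 0 higher. All 45 members passed the filter on low counts. Highly expressed genes were called more often as a whole: 28 subunits are among the tenth of tested genes with the highest mean CPM, where 16.2% of genes were lower against 10 of those 28 subunits.

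**Figure D1:**
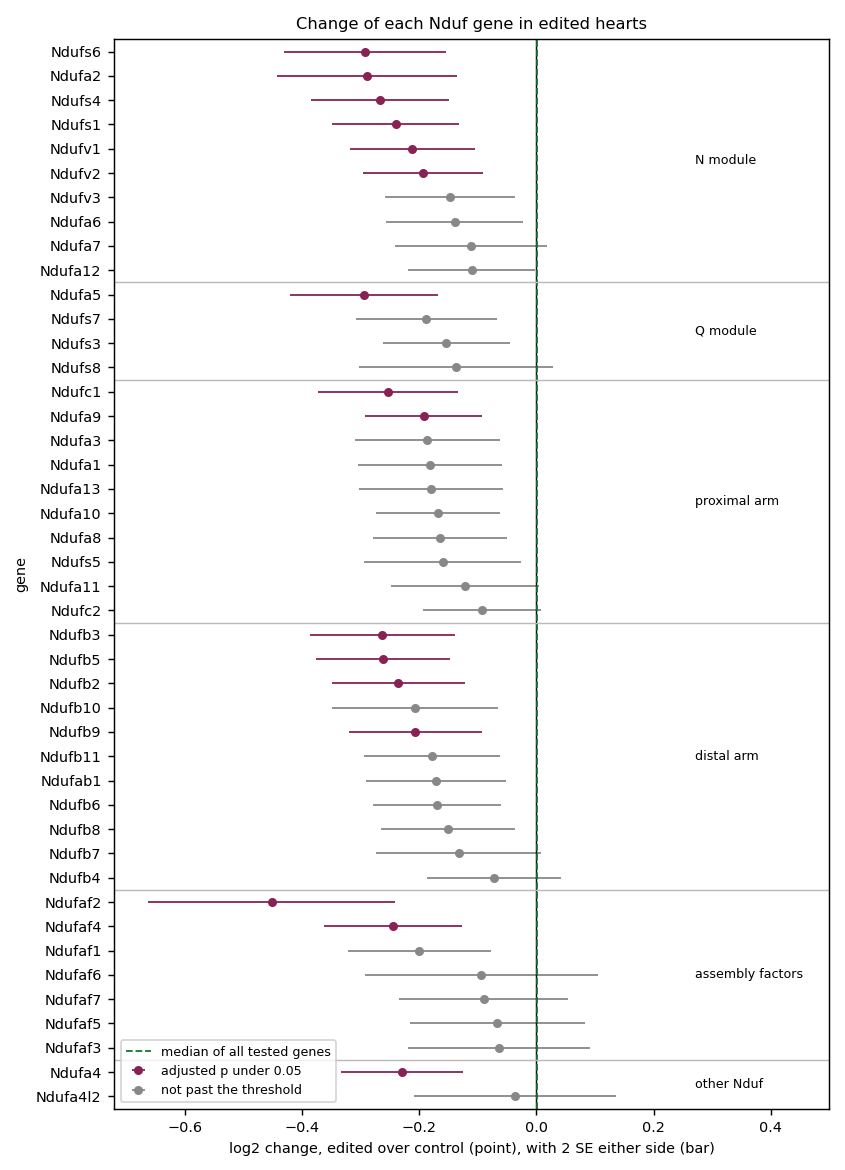
Log2 change of each Nduf gene reported here in edited over control hearts, grouped by role, as a point with 2 SE on either side; coloured points passed the threshold and the dashed line is the median of all tested genes. Every point lies below 0, from -0.45 for Ndufaf2 to -0.036 for Ndufa4l2.

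The number of calls changed with the libraries used, most of all with controls 1 and 3, which have little atrial transcript. Without control 1, and again without control 3, edgeR called 0 of 36 subunits, against 2.39% and 1.31% of all genes lower, with 17 and 19 subunits lower at an unadjusted p under 0.05. Without control 2 it called 24, against 3.91% of all genes. Without edited 3 it called 4, against 2.15%; without edited 1, 9, against 5.04%; and without edited 2, 20, against 4.82%. The median stayed between -0.23 and -0.14 when any single library was left out. With both controls 1 and 3 left out, which leaves 1 control library and takes the spread from the edited hearts, 0 subunits were called, against 0.335% of all genes; 33 of 36 estimates were below 0, with a median of -0.090 and 1 of them at an unadjusted p under 0.05. With log2 Myl7 as a covariate, 0 were called, against 0.551% of all genes. In that fit 34 of 36 estimates were below 0, with a median of -0.10 and 6 at an unadjusted p under 0.05. Myl7 was far lower in controls 1 and 3 than in every other library, so this fit also rests largely on control 2. For the fits in this paragraph the share of all genes at an unadjusted p under 0.05 was not taken, so those counts have no background.

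Other scalings, filters and tools gave between 6 and 27 subunits lower. Upper-quartile scaling gave 8, against 3.57% of all genes lower and 5.71% higher. DESeq2 size factors (4.8% of all genes lower), a filter of 1 CPM in 3 libraries (4.89%) and leaving out mitochondrially encoded and haemoglobin genes (4.74%) each gave 13. No filter gave 19, against 3.78%. DESeq2's own test gave 18, against 4.38%, and limma voom with quality weights 27, against 7.33%. A block for the replicate number gave 8, against 3.07%, removal of the trend with gene length 9, against 5.3%, and both together 6, against 3.78%. At an adjusted p under 0.01 by edgeR 0 were called, against 1.69%, and at 0.1, 25, against 7.31%.

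**Figure D2:**
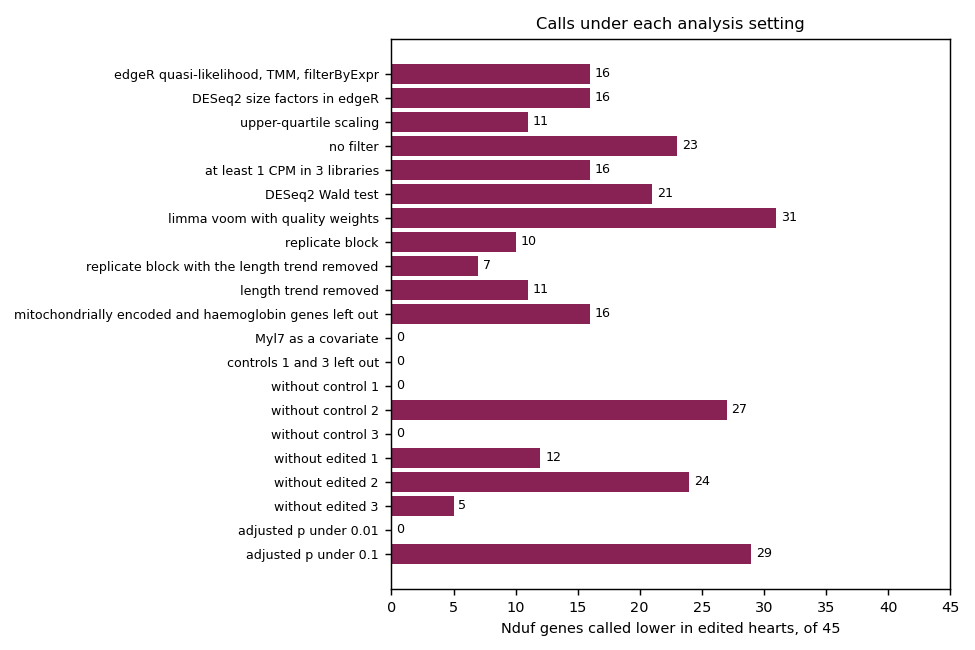
Number of the 45 Nduf genes called lower in edited hearts under each analysis setting, as bars from 0. The count is 16 with all libraries, 27 without control 2, and 0 without control 1, without control 3 or with Myl7 as a covariate.

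Within the controls, control 2 stood lower. In 35 of 36 subunits control 2 was the lowest of the 3 controls, which was so for 34.4% of all tested genes. In 36 of 36 subunits controls 1 and 3 were both above every edited heart, and in 27 control 2 was too. Of all 14879 tested genes, controls 1 and 3 were both above every edited heart in 2980, and control 2 was in 4601. The groups thus did not overlap for 27 of 36 subunits, against 14.7% of all tested genes with edited hearts lower. Myl7, an atrial myosin light chain, was at 6.88, 332 and 0.209 CPM in controls 1, 2 and 3 and 542, 371 and 914 CPM in edited hearts. The part of atrial content in the difference was not tested beyond the 2 fits above, both of which rest largely on control 2.

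**Figure D3:**
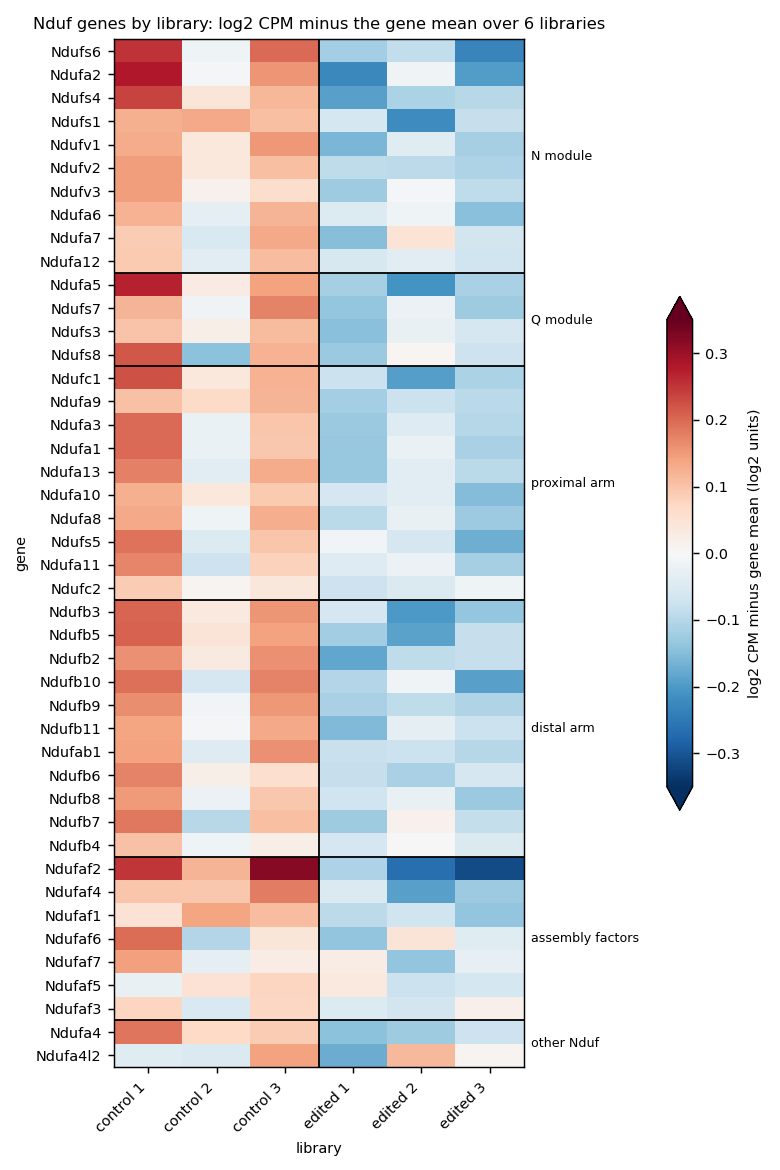
Log2 CPM of each Nduf gene reported here in each library minus the mean of that gene over the 6 libraries, with genes grouped by role. Controls 1 and 3 are mostly above the mean and the edited hearts mostly below, with control 2 between; the median over the 36 subunits is 0.16, -0.0070 and 0.12 in the controls and -0.12, -0.041 and -0.10 in the edited hearts.

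Other heart muscle transcripts were lower too. The sum of 8 heart muscle markers (Myl2 and Myl3, typical of ventricle, and Myh6, Tnni3, Tnnt2, Actc1, Ryr2 and Pln, which atrial muscle also expresses) ran from 76023 to 78855 CPM in controls and from 63651 to 67843 CPM in edited hearts, and 5 of the 8 fell. Per 1000 CPM of these markers, the subunits stood at 123, 113 and 118 CPM in controls 1, 2 and 3 and 117, 124 and 124 CPM in edited hearts. On that scale the groups overlapped (117.8 ± 5.0 and 122 ± 4.3, SD, n = 3). In bulk tissue, fewer heart muscle cells and less RNA per cell cannot be told apart. Of the other cell types, the sum of 8 fibroblast markers was 6903 to 8741 CPM in controls and 8174 to 10211 CPM in edited hearts, with 1 of 8 higher. The endothelial sum was 1759 to 1786 and 1665 to 1784 CPM, smooth muscle and pericyte 1993 to 2077 and 1622 to 2436, macrophage 115.5 to 127 and 99.6 to 110.0, and erythroid 989 to 1279 and 790.4 to 1232 (controls, then edited hearts); 0 genes of these lists passed in edgeR's test. Mesothelial markers summed to 28.4 to 29.5 and 34.5 to 59.7 CPM, with 6 of 8 higher and 1 lower. Schwann cell markers summed to 87.3 to 101 and 113 to 128 CPM, with 1 of 5 tested higher. Adipocyte markers, brown fat included, summed to 560.0 to 645 and 569 to 636 CPM, and skeletal muscle markers to 1049 to 1167 and 1037 to 1181 CPM, with 0 called. The part of these cell types in the complex I result was not tested.

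**Figure D4:**
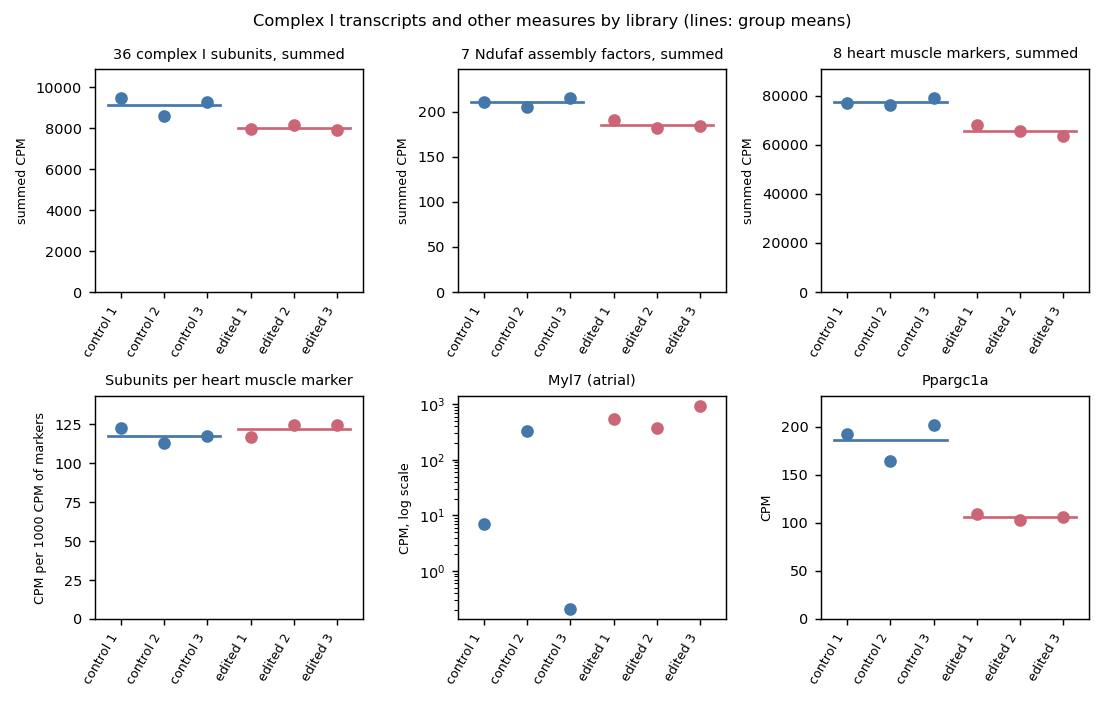
Values of each library for the summed subunits, the summed Ndufaf factors, the summed heart muscle markers, the subunits per 1000 CPM of those markers, Myl7 on a log axis and Ppargc1a, with lines at the group means where the axis is linear. The subunit sums are 8581 to 9453 CPM in controls and 7921 to 8149 CPM in edited hearts, while their ratio to the heart muscle markers overlaps between groups.

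The promoters of the members were read for the motifs of 4 kinds of factor known to bind there. RefSeq windows on GRCm38.p6, from 250 bases before to 50 bases after the start, were found for 39 of 45 members, 13 of them among the 16 that fell. The consensus of NRF1, a GC-rich motif with 1 free base searched on both strands like the others, was in 9 of 39 members (23.1%), against 5.19% of 27025 genes. Those 27025 genes were not matched to the members for GC content or expression. The YY1 letters AAGATGGC were in 7 of 39 (17.9%), against 3.19%, and none of these lay in the 150 bases before the start. The ETS letters CCGGAAG were in 5 (12.8%), against 9.93%, and the ERR motif AAGGTCA in 3 (7.69%), against 5.38%. The NRF1 consensus was in 3 of 13 promoters of genes that fell and 6 of 26 of those not past the threshold, both 23.1%. YY1 letters were in 4 of 13 (30.8%) and 3 of 26 (11.5%), ETS letters in 0 of 13 and 5 of 26 (19.2%), and ERR letters in 1 of 13 and 2 of 26, both 7.69%; these differences were not tested. The windows of Ndufb5, Ndufa4, Ndufaf2, Ndufb3, Ndufv1 and Ndufv2, which fell, held no match to any of the 4 motifs. The windows of 4 genes that fell, each with a match to NRF1 or YY1, are shown 5′ to 3′ along the gene, with matches in capitals. They are Ndufa5 (NRF1; chr6:24527477-24527776, minus strand), Ndufs6 (NRF1, then YY1; chr13:73328433-73328732, minus strand), Ndufaf4 (NRF1; chr4:24897833-24898132, plus strand) and Ndufs4 (YY1; chr13:114388045-114388344, minus strand).
Ndufa5: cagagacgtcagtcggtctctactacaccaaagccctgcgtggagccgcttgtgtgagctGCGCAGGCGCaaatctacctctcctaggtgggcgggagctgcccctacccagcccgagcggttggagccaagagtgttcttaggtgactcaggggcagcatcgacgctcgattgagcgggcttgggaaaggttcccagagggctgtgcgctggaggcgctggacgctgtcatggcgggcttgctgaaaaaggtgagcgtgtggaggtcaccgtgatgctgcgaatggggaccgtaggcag
Ndufs6: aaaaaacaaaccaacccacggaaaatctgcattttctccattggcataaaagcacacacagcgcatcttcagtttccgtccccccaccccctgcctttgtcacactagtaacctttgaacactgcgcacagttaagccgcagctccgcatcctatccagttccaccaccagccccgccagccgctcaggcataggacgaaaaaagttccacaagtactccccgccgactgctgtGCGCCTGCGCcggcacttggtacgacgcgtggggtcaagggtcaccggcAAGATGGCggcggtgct
Ndufaf4: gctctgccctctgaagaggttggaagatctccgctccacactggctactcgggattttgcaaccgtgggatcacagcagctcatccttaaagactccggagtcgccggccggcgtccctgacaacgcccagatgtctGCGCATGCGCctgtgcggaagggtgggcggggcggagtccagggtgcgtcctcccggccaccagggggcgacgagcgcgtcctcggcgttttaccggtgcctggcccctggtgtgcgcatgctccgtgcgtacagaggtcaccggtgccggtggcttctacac
Ndufs4: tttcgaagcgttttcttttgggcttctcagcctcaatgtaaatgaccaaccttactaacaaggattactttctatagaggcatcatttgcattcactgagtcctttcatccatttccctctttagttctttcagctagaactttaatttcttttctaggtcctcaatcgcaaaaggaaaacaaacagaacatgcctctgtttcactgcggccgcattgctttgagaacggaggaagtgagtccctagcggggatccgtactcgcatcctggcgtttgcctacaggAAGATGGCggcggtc
The YY1 match of Ndufs6 and of Ndufs4 is near the end of each window, after the start of transcription. Ndufa5 has another window (chr6:24527641-24527940, minus strand), which also holds 1 NRF1 match. In the deposited table Ndufa5 starts at 24527687, so more than 50 bases of the window shown lie within the gene. A match describes the letters only.

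The N module, where NADH is oxidized, had the most calls: 6 of 10 members fell and 0 rose, with a median log2 change of -0.20. Of all tested genes 4.74% were lower, and 16.2% of the tenth with the highest mean CPM. The same shares are the background for the other modules and lists below, and differences between modules were not tested. Ndufs4, an accessory subunit of the N module, was at 171, 149 and 157 CPM in controls 1, 2 and 3 and 127, 134 and 135 CPM in edited 1, 2 and 3. Its groups differed (log2 -0.27, SE 0.059, adjusted p 0.0126, edgeR). Control 2 was nearest to the edited hearts, and the groups did not overlap. Ndufs1, the largest subunit and a carrier of iron-sulfur clusters, was at 580.4, 583 and 572 CPM in controls and 510.0, 457 and 503 CPM in edited hearts. Here the 3 controls lay close together and edited 2 was lowest (log2 -0.24, SE 0.054, adjusted p 0.0144, edgeR). Ndufs6, which binds zinc, was at 171, 142 and 165 CPM and 132, 135 and 122 CPM, with control 2 less than 10 CPM above edited 2 (log2 -0.29, SE 0.069, adjusted p 0.0185, edgeR). Ndufv1, which holds the flavin that takes electrons from NADH, was at 670.2, 628 and 681 CPM and 549, 595 and 565 CPM, without overlap (log2 -0.21, SE 0.054, adjusted p 0.0244, edgeR). Ndufv2, another core subunit, and Ndufa2, an accessory one, both named after their values were seen, also fell, to 87.5% and 81.8% of the control level. Ndufa12, an accessory subunit, had the smallest estimate of the module: 157, 144 and 159 CPM in controls and 142, 144 and 141 CPM in edited hearts, overlapping at control 2 (log2 -0.11, SE 0.054, adjusted p 0.233, edgeR). The 6 calls were lost without control 1 (adjusted p 0.0642 to 0.14) and without control 3 (0.0741 to 0.167), by edgeR. Ndufa2 and Ndufv1 were lost without edited 1, and Ndufs6, Ndufv2, Ndufa2 and Ndufv1 without edited 3, where the highest adjusted p of the 6 were 0.0911 and 0.132. Ndufv2, Ndufa2 and Ndufv1 were also lost with upper-quartile scaling (0.0624, 0.0606 and 0.0511) and with the replicate block (0.0956, 0.0811 and 0.0827). With Myl7 as a covariate the 6 had adjusted p of 0.139 to 0.521, and with controls 1 and 3 left out 0.286 to 0.647.

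In the Q module, which hands electrons to ubiquinone, 1 of 5 members fell and 0 rose, and the median log2 change was -0.15. That gene, Ndufa5, an accessory subunit, had the smallest adjusted p of all 45 genes. It was at 212, 179 and 194 CPM in controls 1, 2 and 3 and 162, 152 and 163 CPM in edited 1, 2 and 3. Control 2 was again the lowest control, and no edited heart reached it. Ndufa5 changed by -0.29 (SE 0.063) on the log2 scale, which leaves 81.5% of the control level (74.7% to 89.0% at 2 SE either side), with an adjusted p of 0.0106 by edgeR. The call was lost without control 1 (adjusted p 0.0615) and without control 3 (0.0709), with Myl7 as a covariate (0.296) and with controls 1 and 3 left out (0.455). The other 4 members are core subunits shared with bacteria, and none passed. Ndufs7, which carries the last iron-sulfur cluster before ubiquinone, had 213, 194 and 221 CPM in controls and 178, 193 and 179.6 CPM in edited hearts, with control 2 and edited 2 next to each other (log2 -0.19, SE 0.060, adjusted p 0.0662, edgeR). Ndufs3 had 249, 235 and 251 CPM and 210.1, 228 and 223 CPM, without overlap (log2 -0.15, SE 0.054, adjusted p 0.095, edgeR). Of the 50-base stretches of its transcript, 39.7% occur in transcripts of other genes. Ndufs8, another iron-sulfur subunit, had 164, 127 and 153 CPM and 129, 141 and 134 CPM, with control 2 the lowest of all 6 libraries (log2 -0.14, SE 0.083, adjusted p 0.349, edgeR). Over both matrix modules, 3 of 7 core subunits fell, with a median of -0.19. Of the 29 accessory subunits among the Nduf genes followed here 10 fell, with a median of -0.18.

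In the proximal membrane arm 2 of 10 nuclear-encoded members fell and 0 rose (median log2 -0.17). Ndufc1, a small membrane subunit, was at 125, 109.5 and 116 CPM in controls and 101, 93.5 and 98.9 CPM in edited hearts, without overlap (log2 -0.25, SE 0.060, adjusted p 0.0171, edgeR). Ndufa9, which binds a nucleotide where the 2 arms meet, was at 373, 363 and 377 CPM and 319.6, 329 and 325 CPM. Within each group its values lay within 15 CPM, and the gap between the groups was wider (log2 -0.19, SE 0.050, adjusted p 0.0266, edgeR). Both calls were lost without control 1 (adjusted p 0.09 to 0.0997), without control 3 (0.0963 to 0.148) and without edited 3 (0.067 to 0.0935), and that of Ndufa9 also without edited 1 (0.0622), by edgeR. Ndufa9 was lost too with upper-quartile scaling (0.0554) and the replicate block (0.0947). Ndufc1 was lost with the length trend removed, which moved it to -0.16 (0.0842). With Myl7 as a covariate both had adjusted p of 0.348 to 0.362, and with controls 1 and 3 left out 0.454 to 0.526. Ndufa10 had 507, 476 and 495 CPM in controls and 446, 452 and 418 CPM in edited hearts, without overlap, and did not pass (log2 -0.17, SE 0.053, adjusted p 0.0637, edgeR). Ndufa3 had 115, 98.3 and 107 CPM and 91.3, 96.8 and 93.1 CPM, with control 2 just above edited 2 (log2 -0.19, SE 0.062, adjusted p 0.0757, edgeR). Ndufc2, the partner of Ndufc1 in the membrane, had 153, 145 and 148 CPM and 137, 139 and 142 CPM, the smallest estimate of this arm (log2 -0.093, SE 0.050, adjusted p 0.281, edgeR). Ndufa13, also known as GRIM-19 and named here for its overlap with another gene, had a log2 change of -0.18 (SE 0.061) and was not past the threshold (adjusted p 0.0833, edgeR); 15.7% of its exon bases lie in Tssk6 on the opposite strand.

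In the distal membrane arm 4 of 11 members fell and 0 rose, with a median log2 change of -0.18. Ndufb5 was at 296, 264 and 283 CPM in controls and 236, 225 and 242 CPM in edited hearts, and Ndufb3 at 100.2, 89.1 and 96.9 CPM and 83.5, 75.7 and 79.2 CPM. For both, every edited heart was below every control (log2 -0.26, SE 0.057, and -0.26, SE 0.062, adjusted p 0.0116 and 0.0171, edgeR). Ndufb2 was at 117, 107 and 117 CPM and 92.2, 98.4 and 98.9 CPM, lowest in edited 1 (log2 -0.24, SE 0.057, adjusted p 0.0191, edgeR). Ndufb9 was at 405, 359.8 and 403 CPM and 335, 340.4 and 337 CPM, with the 3 edited values close together and control 2 between them and the other controls (log2 -0.21, SE 0.057, adjusted p 0.036, edgeR). These Ndufb genes encode small accessory subunits that surround the pumping core of the arm. Ndufb4, of the same kind, had 64.5, 59.4 and 60.9 CPM and 57.6, 60.2 and 58.0 CPM, an overlap and the smallest estimate of all 36 subunits (log2 -0.072, SE 0.057, adjusted p 0.489, edgeR). Of the 50-base stretches of its transcript, 37.0% also occur in the processed pseudogene Ndufb4c. Genes that fell share stretches with other genes too: 23.4% for Ndufb9 (with Gm49356), 16.2% for Ndufb5 (with Mrpl47), 6.72% for Ndufb3 and 5.39% for Ndufb2. Ndufab1, the mitochondrial acyl carrier protein, which is a subunit of complex I as well as of fatty acid synthesis, is named here for that role and did not pass (log2 -0.17, SE 0.060, adjusted p 0.0908, edgeR). The 4 calls were lost without control 1 (adjusted p 0.0725 to 0.162) and without control 3 (0.085 to 0.202). Ndufb9 was lost without edited 1 (0.0644), and Ndufb3, Ndufb9 and Ndufb2 without edited 3, where the highest was 0.117, by edgeR. Ndufb9 was lost too with upper-quartile scaling (0.0695) and the replicate block (0.0952). With the length trend removed Ndufb9, Ndufb2 and Ndufb3 were lost, at log2 changes of -0.13, -0.15 and -0.20 (adjusted p 0.0793, 0.0634 and 0.0539). With Myl7 as a covariate the 4 had adjusted p of 0.28 to 0.579, and with controls 1 and 3 left out 0.446 to 0.673.

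Of the 7 Ndufaf assembly factors, 2 fell and 0 rose, against 4.74% of all tested genes lower. Their median log2 change was -0.094, and all 7 estimates were below 0. Their summed level was 211, 206 and 215 CPM in controls 1, 2 and 3 and 191, 182 and 185 CPM in edited hearts, so the groups did not overlap. That sum was 2.31% ± 0.080 of the subunit sum in the control group and 2.32% ± 0.092 in the edited group (SD, n = 3), a difference smaller than the spread between replicates. Ndufaf2, a paralogue of the subunit Ndufa12 that holds a late assembly intermediate, had the largest change of all 45 genes. It was at 11.3, 10.3 and 11.9 CPM in controls 1, 2 and 3 and 8.83, 7.92 and 7.65 CPM in edited 1, 2 and 3. Every edited heart was below every control, and the log2 change of -0.45 (SE 0.11) leaves 73.1% of the control level (63.2% to 84.6% at 2 SE either side; adjusted p 0.0165, edgeR). Ndufa12 itself had a log2 change of -0.11 and was not past the threshold; the difference between the 2 genes was not tested.

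Ndufaf4, which with Ndufaf3 builds the early Q module, was at 74.0, 73.9 and 78.4 CPM in controls and 66.8, 60.7 and 63.4 CPM in edited hearts, without overlap (log2 -0.24, SE 0.059, adjusted p 0.019, edgeR). Ndufaf3 had 18.2, 16.6 and 18.2 CPM and 16.7, 16.5 and 17.5 CPM, which overlap (log2 -0.063, SE 0.078, adjusted p 0.68, edgeR). Ndufaf1, a member of the complex that assembles the membrane arm, had 40.4, 43.0 and 42.1 CPM and 36.6, 37.2 and 35.5 CPM. Its groups did not overlap, and it missed the threshold (log2 -0.20, SE 0.061, adjusted p 0.0545, edgeR). Ndufaf7, a methyltransferase, had 34.2, 30.3 and 31.5 CPM and 31.5, 28.2 and 30.4 CPM, with overlap (log2 -0.090, SE 0.072, adjusted p 0.494, edgeR). The 2 remaining factors, Ndufaf5, which hydroxylates Ndufs7, and Ndufaf6, had log2 changes of -0.066 and -0.094 and overlapping groups. The 2 calls were lost without control 1 (adjusted p 0.0562 to 0.0621), control 3 (0.108 to 0.129) or edited 3 (0.0694 to 0.0707), with Myl7 as a covariate (0.366 to 0.367) or with controls 1 and 3 left out (0.418 to 0.457), by edgeR. Ndufaf2 was lost with the replicate block and the length trend removed together (0.0542). In the fit without edited 2, 3 of the 7 factors were called. The assembly factor Ndufaf8 is in the table under an older symbol, 1810043H04Rik, so the rule does not take it. It was named after its values were seen: 11.5, 10.5 and 10.6 CPM in controls and 10.5, 11.6 and 10.4 CPM in edited hearts, a log2 change of -0.0020 (SE 0.095) and an adjusted p of 0.994 by edgeR.

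The 2 other Nduf genes differed from each other in level. Ndufa4, now regarded as a subunit of cytochrome c oxidase, was at 571, 527 and 534 CPM in controls and 454, 461 and 477 CPM in edited hearts. It fell, without overlap (log2 -0.23, SE 0.052, adjusted p 0.0151, edgeR), and the call was lost without control 1 (0.0911) and without control 3 (0.0801). It was also lost with the replicate block (0.0565), with Myl7 as a covariate (0.214) and with controls 1 and 3 left out (0.393), and with the length trend removed, which moved it to -0.14 (0.0688). Its paralogue Ndufa4l2, induced by low oxygen, had 24.0, 23.9 and 27.3 CPM and 22.0, 26.8 and 24.9 CPM, which overlap (log2 -0.036, SE 0.086, adjusted p 0.85, edgeR). The direction of that estimate flips with the length trend removed (0.0046), with the replicate block as well (0.0086), with Myl7 as a covariate (0.080), with controls 1 and 3 left out (0.029), without control 3 (0.030) and without edited 1 (0.042).

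Levels per length spread widely among subunits of 1 enzyme. In CPM per kb of exon in the deposited table, subunits ran from 85.3 for Ndufa11 to 643 for Ndufb10 in controls, a 7.54-fold range around a median of 261. In edited hearts the range was 78.4 to 557, with a median of 229. Ndufa4 was higher than any subunit, at 1106 ± 48.8 CPM per kb in controls (SD, n = 3). Ndufb10 (643 ± 60.1) and Ndufb9 (598 ± 39.2) followed and did not differ beyond their spread. The assembly factors were scarcer, from 5.51 for Ndufaf6 to 26.8 for Ndufaf1, with a median of 13.8, below every subunit on these lengths. Ndufaf1 (26.8 ± 0.828) and Ndufa4l2 (23.7 ± 1.81) were neighbours in the order, and Ndufaf2 and Ndufaf7 were level at 13.8 ± 0.958 and 13.7 ± 0.86. The values rest on the exon length used: with all GENCODE M21 exons the medians were 128 CPM per kb for subunits and 10.4 for factors, and Ndufb9 led. On those lengths subunits ran from 20.2 (Ndufb2) to 377.5 and factors from 3.75 (Ndufaf2) to 27.9 (Ndufaf1), so the 2 classes overlap. Across the 36 subunits, the log2 change had a Spearman's rho of 0.059 with exon length and -0.22 with control level per kb. Over all tested genes there was a trend with length. The median log2 change was -0.091 up to 500 bases and 0.015 above 3000 bases, a length that 0 subunits exceed. These are descriptions over genes of the same 6 libraries. Between replicates, the coefficient of variation of a subunit had a median of 5.95% in controls and 3.95% in edited hearts.

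**Figure D5:**
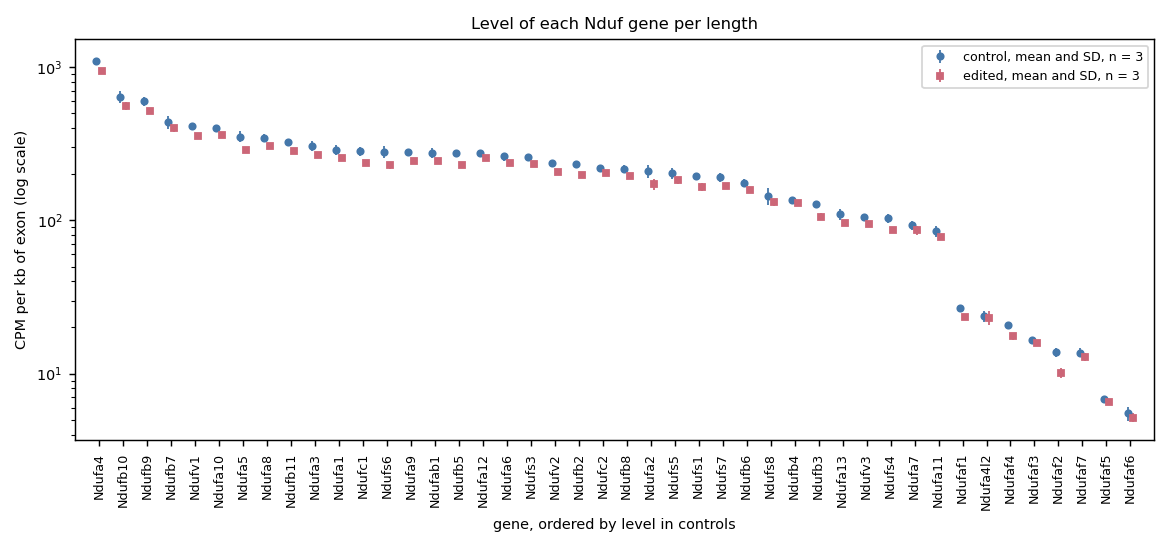
Mean level of each Nduf gene reported here in CPM per kb of exon, on a log axis, with SD over 3 libraries, in control and edited hearts, ordered by the level in controls. Subunits lie between 85.3 and 643 CPM per kb in controls, and the 7 assembly factors between 5.51 and 26.8.

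The rest of complex I was followed through lists outside the Nduf names. Mitochondrial DNA encodes 7 subunits of the membrane arm, and 2 of them fell: ND6 and ND4. ND6 was at 4295, 3383 and 3766 CPM in controls 1, 2 and 3 and 2259.9, 2457 and 2425 CPM in edited 1, 2 and 3. Every edited heart was below every control, and ND6 fell (log2 -0.68, SE 0.078, adjusted p 0.00099, edgeR). ND6 passed in all 19 settings in which it was tested, with a highest adjusted p of 0.0329, and 0% of its 50-base stretches occur in another annotated transcript. ND6 is the only protein gene on its strand of mitochondrial DNA; the counting is not stated to use strand, so its reads and those of RNA from the opposite strand cannot be told apart. ND4 was at 11229.8, 10654 and 11298 CPM and 9831, 9282 and 8871 CPM (log2 -0.25, SE 0.047, adjusted p 0.00574, edgeR), a call lost without control 3 (0.0865), with a Myl7 covariate (0.316) and when control 2 was the only control (0.406). Of its 50-base stretches 62.2% are shared with the nuclear pseudogene Gm28439, and those of ND3 and ND4L are shared by 98.0% and 98.8% with such copies. ND4L and ND3 had the largest estimates of the list and did not pass, with every edited heart below every control (ND4L log2 -1.35 (SE 0.26), adjusted p 0.0521, and ND3 log2 -0.98 (SE 0.22), adjusted p 0.066, edgeR). Their control means were only 84.6 and 48.4 CPM, against 3815 to 16779 CPM for the other ND genes. With nearly all of their stretches shared, how far these counts measure the transcripts was not tested. ND1, ND2 and ND5, for which at most 8.19% of the stretches are shared, had log2 changes of -0.073, -0.17 and -0.20 and did not pass. Without edited 1, 6 of the 7 passed, and without control 3, 1.

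Of 13 assembly genes with other names, 2 fell and 0 rose, with a median log2 change of -0.11. Tmem70, which inserts membrane parts of complex I and ATP synthase, was at 76.3, 77.2 and 74.4 CPM in controls and 67.7, 58.9 and 65.4 CPM in edited hearts (log2 -0.25, SE 0.062, adjusted p 0.0237, edgeR). Tmem126a was at 42.4, 41.3 and 43.0 CPM and 37.5, 35.7 and 36.1 CPM (log2 -0.21, SE 0.060, adjusted p 0.0395, edgeR). For both genes the groups did not overlap, and the 3 controls lay within 3 CPM of each other. The calls were 0 without control 1, control 2, control 3 or edited 3, and 1 without edited 2; a Myl7 covariate, or control 2 as the only control, also gave 0. Tmem70 was also lost with the replicate block (adjusted p 0.0511). Tmem126a was lost too with upper-quartile scaling (0.0672), DESeq2's test (0.104), the block (0.101) and the length trend removed (0.143). Succinate dehydrogenase, complex II, feeds ubiquinone by another route; 4 of its 8 subunit and assembly genes fell and 0 rose, with a median of -0.19. Sdhc was at 378, 364 and 381 CPM and 305, 332 and 325 CPM, and Sdhb at 469.6, 411 and 433 CPM and 367, 393 and 371 CPM, without overlap (log2 -0.22, SE 0.053, and -0.22, SE 0.059, adjusted p 0.0194 and 0.0335, edgeR). The complex II calls were 0 without control 1, control 3 or edited 3, and 2 without edited 1; a Myl7 covariate, or control 2 as the only control, also gave 0. Sdhc and Sdhb were also lost with the replicate block (adjusted p 0.0665 and 0.0944), and Sdhb with upper-quartile scaling (0.0646).

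Among 12 regulators of nuclear genes for mitochondrial proteins, 3 fell and 1 rose. Ppargc1a, the coactivator PGC-1 alpha, was at 192, 164 and 201 CPM in controls and 109, 102 and 106 CPM in edited hearts (log2 -0.81, SE 0.070, adjusted p 5.34e-05, edgeR). Control 2 was the lowest control and far above the edited hearts, and the call held in all 20 settings. Esrra, the receptor ERR alpha that works with it, was at 147, 152 and 163 CPM and 127, 136 and 130.5 CPM (log2 -0.23, SE 0.055, adjusted p 0.0182, edgeR), a call lost without control 3 (0.133) or edited 3 (0.0832), with a Myl7 covariate (0.393) and when control 2 was the only control (0.346). The other calls, named after their values were seen, were Ppara, lower (log2 -0.53, SE 0.11), and Esrrb, higher (log2 0.46, SE 0.11). The call of Ppara was lost without control 3 or edited 2. The rise of Esrrb was lost without control 1, control 2, control 3, edited 1 or edited 3. Both calls were also lost with a Myl7 covariate and when control 2 was the only control. Nrf1, Gabpa and Yy1, factors known to bind promoters of respiratory genes, had log2 changes of -0.033, -0.067 and -0.053 and did not pass.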

How the data were processed

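RNA of 6 mouse heart libraries, 3 edited and 3 control, was sequenced. The authors deposited 1 table of raw read counts per gene, not normalized, with exon coordinates and lengths. Per the submitters' processing notes, the tools include STAR, featureCounts, cutadapt and FastQC, and the build is mm10. Their versions, the strand setting and the handling of reads that match several places are not given in those notes. Each library has 2 count columns named after the mate files, which differed in 0 genes, and the first was used. No replicate pair agreed within sampling noise (chi-square per degree of freedom 3.95 to 14.4 over genes with at least 20 counts).

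Genes were kept by filterByExpr (14879 of 35976), scaled by TMM and tested with edgeR 4.0.16 (quasi-likelihood, robust, group as the only term, R 4.3.3), with Benjamini-Hochberg adjustment and a threshold of 0.05. SE is the absolute log2 change over the root of F. Alternatives used DESeq2 1.42.0, limma 3.58.1, other scalings, filters and thresholds, a length trend removed, a replicate block, Myl7 as a covariate and libraries left out. On simulated counts with 200 genes changed, and 14578 tested, 10% of 1.2-fold changes and 61.7% of 1.5-fold changes were called, and 0.118% of unchanged genes. The changed genes were drawn at random from all levels, so these are not the rates for the highly expressed subunits. The simulated controls also lack the atrial difference seen among the real ones, so 0.118% is not the rate of false calls here.

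The members, role groups and lists were chosen with earlier results of these data known. The 7 core subunits follow textbook use; Ndufa9 was put in the proximal arm and Ndufab1 in the distal arm. Values of every library are given for the 4 genes of each role with the smallest p and those with the largest and smallest change, and for the top 2 of each pathway list. List symbols absent from the table were matched through RefSeq synonyms (Dmac1 as Tmem261, Dmac2 as Atp5sl); Coa1 had no row. Exon overlap was read from the table. Shared stretches are 50-base words of the longest coding GENCODE M21 transcript found in transcripts of other genes; all 45 genes overlap their GENCODE gene. The member with the most shared words was Ndufs3 (39.7%). The values of 1 member are not reported here; it stays in the counts, sums and medians.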

Additional observations from a re-analysis of the deposited data

How the results depend on the processing

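Across the 20 alternative settings no member was called higher. The number of the 16 called members that stayed lower was 16 with DESeq2 size factors, no filter, 1 CPM in 3 libraries, the DESeq2 test, voom, mitochondrial and haemoglobin genes left out, and without control 2 or edited 2, and at a threshold of 0.1. It was 11 with upper-quartile scaling, 11 with the length trend removed, 10 with the replicate block, 7 with the block and the length trend removed, 12 without edited 1 and 5 without edited 3. It was 0 without control 1, without control 3, without both, with Myl7 as a covariate and at a threshold of 0.01. The numbers of subunits, assembly factors and pathway list genes lower were 13, 2 and 11 with all libraries. Upper-quartile scaling gave 8 subunits and 7 pathway genes, and a factor median of -0.070. Voom gave 27 and 17. A threshold of 0.01 gave 0, 0 and 3, with 0 pathway genes higher against 1, and a threshold of 0.1 gave 25 subunits. Myl7 as a covariate gave 0, 0 and 2 lower and 0 higher, with medians of -0.10 and -0.060. With controls 1 and 3 left out the counts were 0, 0 and 2 lower and 0 higher, and the subunit median -0.090. Over the fits without 1 library, subunits lower ran from 0 to 24, factors lower from 0 to 3, pathway genes lower from 2 to 13 and higher from 0 to 1, and the medians from -0.23 to -0.14 and from -0.17 to -0.094. The cause of these shifts was not tested, apart from the samples and genes each leaves out.

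The replicate numbers gave no sign of pairing the samples: same-numbered libraries had correlations of deviations of 0.020, -0.096 and -0.076. These deviations are centred within groups of 3 libraries, so they cannot settle whether samples were paired. The replicate block gave 8 subunits and 7 pathway genes lower, and with the length trend removed as well 6 subunits, 1 factor and 7 pathway genes. Without the block, the length trend removed gave 9 subunits. Not every library correlated best with its own number.

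Among the genes given with the values of every library, the estimates that turned positive, none past the threshold, were Ndufa4l2 and Ndufb4 with the length trend removed (0.0046 and 0.015) and with the replicate block as well (0.0086 and 0.015). With Myl7 as a covariate they were Ndufaf3 (0.0050), Ndufa4l2 (0.080) and Ndufs8 (0.028), and with controls 1 and 3 left out Ndufaf3 (0.017), Ndufa4l2 (0.029) and Ndufs8 (0.074). Ndufa4l2 was at 0.03 without control 3 and 0.042 without edited 1. With GENCODE exon lengths the median CPM per kb moved to 128 for subunits and 10.4 for factors. In the 150 bases before the start, ERR letters were in 2.56% of members, against 2.69% of all genes, and YY1 letters in 0%, against 1.02%.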
